A study of Rattus norvegicus with 9 samples.

Results

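Atp2a2 and Ryr2 encode the calcium pump and the calcium release channel of the sarcoplasmic reticulum, the calcium store of the heart muscle cell. Both genes were chosen by Ensembl identifier, ENSRNOG00000001285 for Atp2a2 and ENSRNOG00000017060 for Ryr2. They are 2 of the 30560 identifiers in each count table, 0 were missing, and both were among the 15879 genes kept after removal of genes with few counts. The tables hold identifiers without gene names, so the symbols rest on the pairing given with the choice of the 2 genes.

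The study sequenced RNA of rat heart cardiomyocytes, named NRCM in the labels, in 9 libraries that form 3 groups of 3. The normoxia group was not made hypoxic. The H/R-DMSO group spent 6 h at 0.1% oxygen in DMEM free of glucose and sodium pyruvate and then 12 h of reoxygenation in standard medium under 21% oxygen. DMSO, the solvent, was given in this group. The H/R-AS8351 group was treated alike, hypoxia and reoxygenation (H/R) included, but with 0.5 µM AS8351, dissolved in DMSO, during the reoxygenation. AS8351 is described in the labels as inhibiting Kdm5b, an enzyme that removes methyl groups from histone lysines. Whether DMSO was also given in normoxia is not stated, so that H/R and the solvent cannot be told apart in comparisons with normoxia. Both H/R groups met low oxygen and that DMEM together, and no normoxia medium is given here, so these cannot be told apart either. Separate cultures for the 3 replicates are not stated either, so p-values measure the spread among these libraries alone, and that spread may be technical.

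Libraries held between 34442733 and 54888975 counts. Atp2a2 was covered by 77123 to 155868 counts per library and Ryr2 by 21648 to 33187. Sampling of counts alone gives a coefficient of variation of at most 0.36% for Atp2a2 and 0.68% for Ryr2, which is small beside the differences between groups described here. No gene names could be given to the other identifiers, so cardiomyocyte markers, markers of other cell types and the other calcium-handling genes, such as phospholamban and calsequestrin, were not analysed here.

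In a heart muscle cell, calcium that enters through the surface membrane opens RYR2 channels, and the calcium they release from the store triggers contraction. SERCA2, the protein of Atp2a2, then pumps calcium back into the store, and the muscle relaxes. How much calcium is stored and released at each beat depends on the balance of the pump, its inhibitor phospholamban and the release channel, and lower SERCA2 is a known feature of failing heart muscle.

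Kdm5b is known to act on histones at promoters, and the 250 bases upstream of each gene's start are shown, from RefSeq on the build GRCr8. Both genes matched that table. This is not the build named for the counts, and the positions serve only to locate these sequences. The Atp2a2 promoter lies at chr12:39733269-39733518 and the Ryr2 promoter at chr17:63081277-63081526, both on the plus strand, and capitals mark the Sp1 box GGGCGG on either strand.
Atp2a2: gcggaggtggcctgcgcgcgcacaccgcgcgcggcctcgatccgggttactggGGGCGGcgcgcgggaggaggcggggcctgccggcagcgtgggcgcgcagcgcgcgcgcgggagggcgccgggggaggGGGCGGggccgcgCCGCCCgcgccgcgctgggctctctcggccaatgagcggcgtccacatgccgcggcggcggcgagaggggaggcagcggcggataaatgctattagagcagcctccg
Ryr2: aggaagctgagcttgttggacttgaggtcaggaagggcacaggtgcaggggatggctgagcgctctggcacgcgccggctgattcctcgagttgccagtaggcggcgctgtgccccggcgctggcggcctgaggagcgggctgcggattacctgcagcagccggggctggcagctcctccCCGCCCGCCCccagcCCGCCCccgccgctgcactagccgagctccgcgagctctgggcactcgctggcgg

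Both windows were rich in G and C. The Atp2a2 window held 45 CG dinucleotides and 80% G and C, and 99.6% of the 33465 promoter windows of this length held fewer CG. The Ryr2 window held 23 CG dinucleotides and 72.0% G and C, and 87.7% of windows held fewer CG. The median window held 5 CG dinucleotides and 51.2% G and C. Each of the 2 windows held 3 Sp1 boxes, 2 of which overlapped in Ryr2, and 30.5% of all windows held at least 1. In Atp2a2 the boxes began 197, 120 and 107 bases before the start, and in Ryr2 70, 66 and 55 bases before it. Each window also held 1 E-box CANNTG, found in 65.5% of windows, and 1 core of the hypoxia response element in the form GCGTG, found in 25.9%. The thyroid hormone receptor half-site AGGTCA occurred once in Ryr2 and in 14.1% of windows. The form ACGTG (16.6% of windows), the GATA motif AGATAA (10.3%), the TATA box TATAAA (12.9%), the MEF2 motif (0.523%) and the CArG box (1.5%) were in neither. All motifs were searched on both strands. The shares count windows with at least 1 match, over windows of any base composition. Shares among windows as rich in G and C as these 2 were not computed. The shares therefore cannot show whether a motif is more or less frequent here than base composition alone would give. A match is a description of the letters, and binding and histone methylation at these promoters were not measured here.

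Atp2a2, the pump gene, was lower after H/R and stood between the other groups with AS8351. Values are CPM, counts scaled to a common library size, after correction by the trimmed mean of M-values (TMM). The normoxia libraries had 3002, 3030 and 3031 CPM. H/R-DMSO libraries had 2090, 2144 and 2088 CPM, and H/R-AS8351 libraries 2743, 2752 and 2749 CPM. No library of one group reached the range of another, and the order was normoxia, H/R-AS8351, H/R-DMSO. Of all genes tested, 57.5% had no overlap between H/R-DMSO and normoxia, 35.0% between the H/R groups and 48.9% between H/R-AS8351 and normoxia. The share without overlap among all 3 groups was not computed. The means were 3021 ± 16.2 CPM (SD, n = 3) in normoxia, 2107 ± 31.6 CPM in H/R-DMSO and 2748 ± 4.29 CPM in H/R-AS8351.

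Ryr2, the release channel gene, had its highest values with AS8351 and overlapping values in the other groups. Its normoxia libraries stood at 629, 645 and 612 CPM, its H/R-DMSO libraries at 631, 652 and 657 CPM, and its H/R-AS8351 libraries at 717, 673 and 701 CPM. The ranges of normoxia and H/R-DMSO overlapped, and all 3 H/R-AS8351 libraries lay above both. Ranges without overlap, in either direction, were found for 35.0% of the genes tested between the H/R groups and for 48.9% between H/R-AS8351 and normoxia. When libraries were scaled to the total count alone, replicate 2 of H/R-AS8351 fell within the H/R-DMSO range of Ryr2. The means were 629 ± 16.7 CPM (SD, n = 3) in normoxia, 647 ± 13.7 CPM in H/R-DMSO and 697 ± 22.2 CPM in H/R-AS8351. Counts are not corrected for gene length, so the CPM of the 2 genes are not compared with each other as levels.

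**Figure D1:**
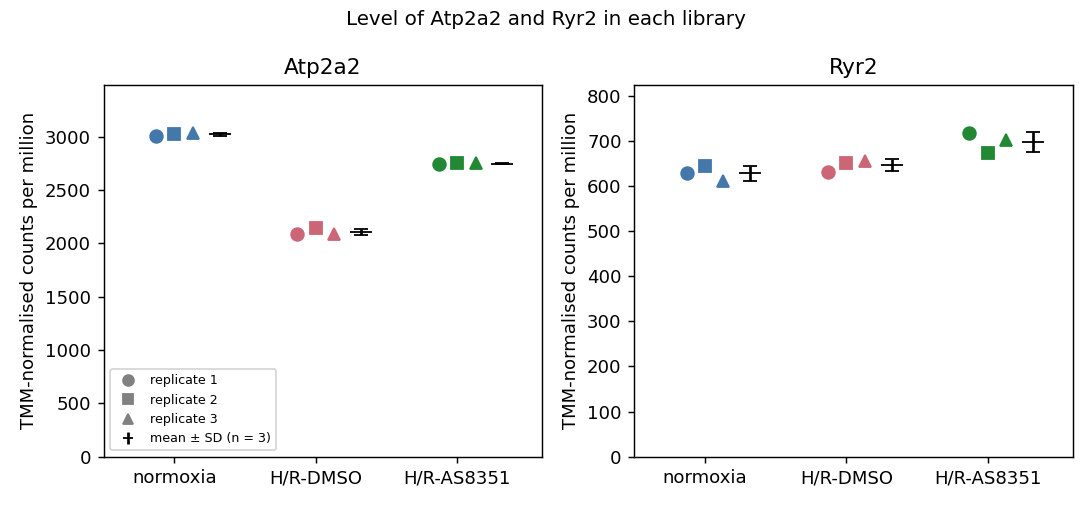
TMM-normalised CPM of Atp2a2 (left) and Ryr2 (right) in each of the 9 libraries, by group, on axes that start at 0; symbols give the replicate number, and the black bar beside each group is the mean ± SD (n = 3). Atp2a2 separates into 3 levels around 3021, 2107 and 2748 CPM, while the Ryr2 values of normoxia and H/R-DMSO overlap and those of H/R-AS8351 lie above them.

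The coefficient of variation of Atp2a2 between replicates was 0.537% in normoxia, 1.5% in H/R-DMSO and 0.156% in H/R-AS8351. The medians over the 2001 genes averaging 100 CPM or more were 2.14%, 3.598% and 2.78%. The Atp2a2 value in H/R-AS8351 lay below the 0.276% to 0.310% that count sampling alone gives in these libraries, so this SD over 3 libraries understates the error. The coefficients of Ryr2 were 2.66%, 2.12% and 3.18%, above the median in normoxia and H/R-AS8351 and below it in H/R-DMSO.

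H/R with the solvent was first set against normoxia. Atp2a2 fell by 30.2% (95% interval of the change -33.1% to -27.3%), which is -0.52 ± 0.03 (SE) as a log2 fold change, with an adjusted p of 4.70e-19 in the edgeR quasi-likelihood test. For Ryr2 the log2 fold change was 0.04 ± 0.03 (SE), with an interval from -1.99% to 7.95%, and it did not pass the test (edgeR adjusted p = 0.337). So 1 of the 2 genes was called, and it was called lower. Of all genes tested, 25.2% were called lower, 27.5% higher and 52.7% in either direction, and 57.5% had CPM ranges without overlap between the 2 groups. The Atp2a2 decrease was beyond that of most genes: 12.6% of the genes tested had a lower log2 fold change. Ryr2 lay near the middle, with 51.5% of genes below it. In these bulk libraries, fewer cells of a type and less RNA per cell cannot be told apart.

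The Ryr2 value rested on the scaling of the libraries. Scaled to the total count alone, it was called higher after H/R, at a log2 fold change of 0.20 (edgeR adjusted p = 2.66e-06, range over all alternatives 2.66e-06 to 0.734). That scaling moved the median log2 fold change of all genes from 0.03 to 0.19, and relative to the median Ryr2 stood at 0.01 under both scalings. Atp2a2 stood 0.55 below the median under both. A change of scaling shifts the log2 fold changes of all genes almost equally, so these distances were bound to stay nearly the same.

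Both genes were higher with AS8351 than with DMSO alone after H/R, Atp2a2 by more. Atp2a2 was 30.4% higher (95% interval 25.1% to 35.9%), or 0.38 ± 0.03 (SE) on the log2 scale, with an edgeR adjusted p of 5.99e-14. Ryr2 was 7.83% higher (95% interval 2.75% to 13.2%), or 0.11 ± 0.03 (SE) on the log2 scale, with an edgeR adjusted p of 0.0174. Of all genes tested, 13.1% were called higher, 9.97% lower and 23.1% in either direction. For both genes the 2 groups had CPM ranges without overlap, as had 35.0% of the genes tested. For Atp2a2, 9.23% of the genes tested had a higher log2 fold change, and for Ryr2 28.8%.

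The Ryr2 call did not hold in every setting. Without replicate 1 of H/R-AS8351, its highest library, the log2 fold change was 0.09 (edgeR adjusted p = 0.0814), and without replicate 3 it was 0.10 (adjusted p = 0.0732). Scaled to the total count alone it was 0.07 (adjusted p = 0.128, range over all alternatives 0.00396 to 0.128), and its direction was the same in all 18 alternatives. On that scale the H/R-AS8351 libraries stood at 736, 683 and 716 CPM and the H/R-DMSO libraries at 661, 681 and 688 CPM, so that the ranges overlapped through replicate 2 of H/R-AS8351. Atp2a2 was called higher in all 18 alternatives, with log2 fold changes from 0.35 to 0.40.

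Set against normoxia, the H/R-AS8351 libraries had lower CPM of Atp2a2 and higher CPM of Ryr2 with TMM scaling. The change of Atp2a2 was -9.04% (95% interval -12.7% to -5.22%), or -0.14 ± 0.03 (SE) on the log2 scale, with an edgeR adjusted p of 0.000194. The change of Ryr2 was 10.9% (95% interval 5.68% to 16.4%), or 0.15 ± 0.03 (SE) on the log2 scale, with an edgeR adjusted p of 0.00048. With this scaling the 2 genes were thus called in opposite directions. Of all genes tested, 19.7% were called higher, 19.7% lower and 39.4% in either direction, and 48.9% had CPM ranges without overlap. In size, 38.9% of the genes tested changed less than Atp2a2 and 41.6% less than Ryr2.

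The remaining difference of Atp2a2 from normoxia was lost when libraries were scaled to the total count alone, which put it at -0.01 on the log2 scale (edgeR adjusted p = 0.769, range over all alternatives 3.20e-08 to 0.769). On that scale Atp2a2 stood at 2804 ± 11.9 CPM (SD, n = 3) in H/R-AS8351 and 2826 ± 15.7 CPM in normoxia. The median of all genes was then 0.13, against 0.01 with TMM, and Atp2a2 stood 0.15 below the median under both. That distance, too, was bound to stay nearly the same. Ryr2 was called higher than in normoxia in all 18 alternatives, with log2 fold changes from 0.13 to 0.27, the highest with the total count alone. The plot of fold changes under 4 scalings shows that RLE and upper-quartile scaling gave values close to those of TMM for both genes.

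**Figure D2:**
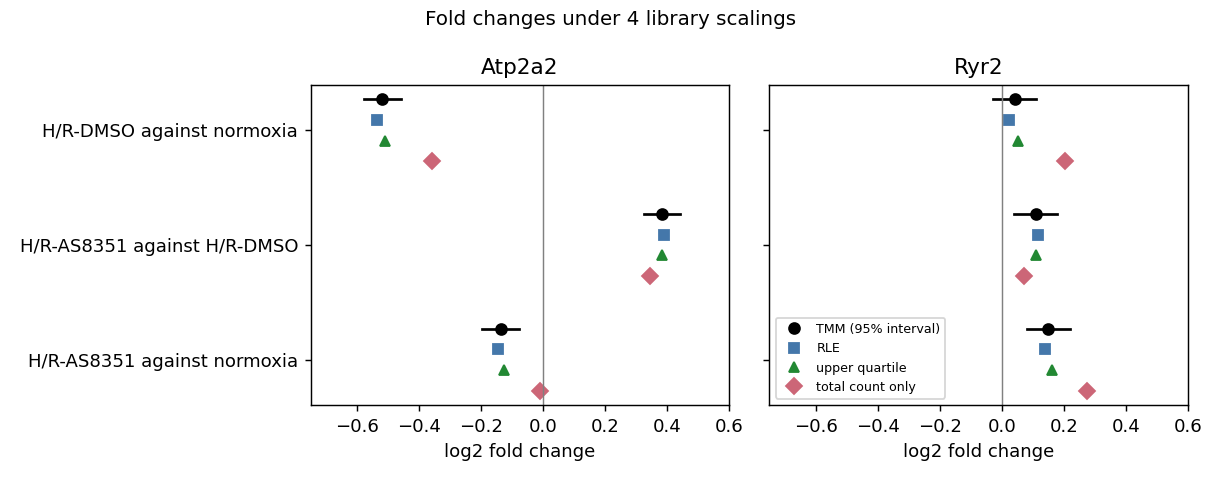
Log2 fold changes of Atp2a2 (left) and Ryr2 (right) in the 3 comparisons, one symbol per library scaling; the black line is the 95% interval of the value with TMM scaling and the grey line marks no change. Scaling to the total count alone (diamonds) moved Ryr2 after H/R from 0.04 to 0.20 and Atp2a2 with AS8351 against normoxia from -0.14 to -0.01.

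**Figure D3:**
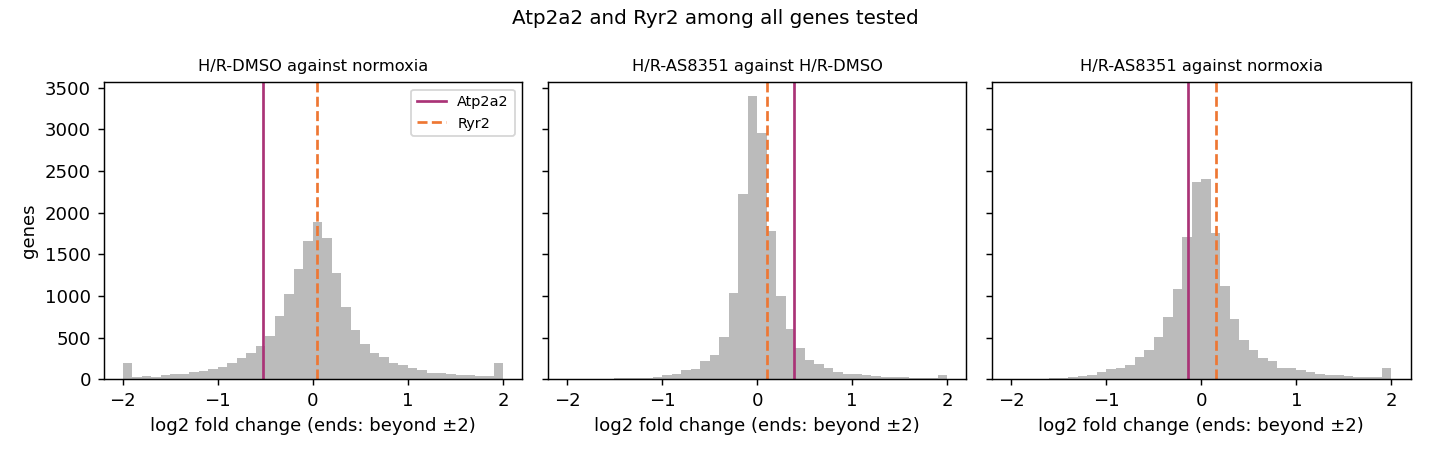
Histograms of the log2 fold changes of the 15879 genes tested in the 3 comparisons, with Atp2a2 (solid line) and Ryr2 (dashed line) marked; bins are 0.1 wide, and genes beyond the axis are counted in the end bins. Atp2a2 lies in the lower tail after H/R, with 12.6% of genes below it, and in the upper tail with AS8351 against H/R-DMSO, with 9.23% above it. Ryr2 lies nearer to the middle in these, and against normoxia with AS8351 the genes lie on opposite sides, with 29.2% of genes below Atp2a2 and 30.5% above Ryr2.

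With H/R-DMSO set at 0% and normoxia at 100% in CPM, the 3 H/R-AS8351 libraries placed Atp2a2 at 69.6%, 70.5% and 70.2% of the way to normoxia, with a mean of 70.1% ± 0.469 (SD over 3 libraries). This SD rests on the H/R-AS8351 libraries alone, whose spread was below counting error. For the 1676 genes that were called lower after H/R with at least the same log2 decrease, the median position was 34.3%, with an interquartile range from 23.7% to 46.5%, and 94.7% of them lay below Atp2a2. Atp2a2 is itself among these genes and by their choice has the smallest log2 decrease of them. A given rise makes a lower position in a gene that fell further. All positions rest on 1 set of normoxia and H/R-DMSO libraries, from which these genes were also chosen, and are given as a description. On the log2 scale Atp2a2 stood at 73.7% and those genes at a median of 44.3%. Scaled to the total count alone, Atp2a2 stood at 96.4% and those genes at 39.3%. Ryr2 has no such position, since it was not called after H/R.

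The ratio of Atp2a2 to Ryr2 counts within a library needs no scaling between libraries and shows whether the 2 genes changed by the same factor. Without length correction its size says nothing on which transcript was more abundant. The normoxia libraries had ratios of 4.77, 4.70 and 4.95, the H/R-DMSO libraries of 3.31, 3.29 and 3.18, and the H/R-AS8351 libraries of 3.83, 4.09 and 3.92. The 3 groups did not overlap, with H/R-AS8351 between the others. How often the ratios of other gene pairs separate in this way was not computed. The means of the log2 ratio were 2.27 ± 0.04 (SD, n = 3), 1.70 ± 0.03 and 1.98 ± 0.05.

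Over the 3 groups, 98.0% of the variance of the log2 ratio lay between groups (exact permutation test over all 1680 assignments, p = 0.00357, the smallest these can give). After H/R the log2 ratio was lower by a difference of -0.56 (SE 0.03), and with AS8351 it was higher than in H/R-DMSO by 0.27 (SE 0.03) and differed from normoxia by -0.29 (SE 0.04). Each of these 3 differences had p = 0.10 in a two-sided exact permutation test, also after Benjamini-Hochberg adjustment over the 3, and 3 libraries against 3 cannot give a smaller p. So the 2 genes changed by unequal factors across the groups, whatever the scaling of the libraries.

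**Figure D4:**
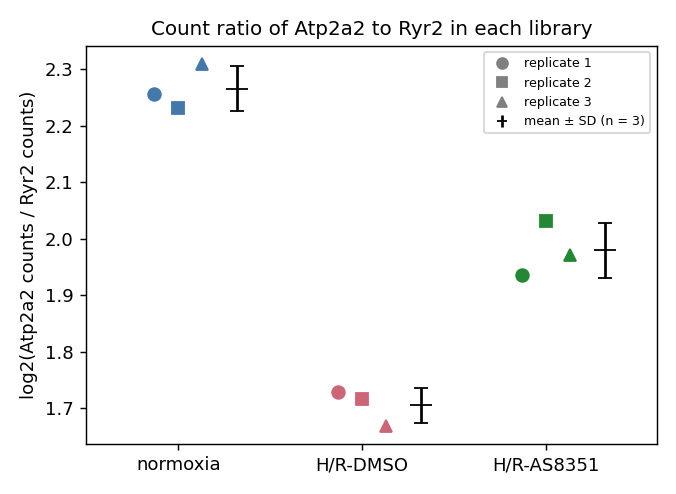
Log2 ratio of Atp2a2 to Ryr2 counts in each of the 9 libraries, by group; symbols give the replicate number and the black bar is the mean ± SD (n = 3). The axis does not start at 0. The groups separate, with means of 2.27 in normoxia, 1.70 in H/R-DMSO and 1.98 in H/R-AS8351.

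The likeness of other genes was measured as the root mean square difference in log2 CPM over the 9 libraries, after each gene was centred on its own mean, among genes averaging 5 CPM or more. The pattern nearest to Atp2a2 was that of ENSRNOG00000008620, at a distance of 0.03 on the log2 scale, against a median of 0.25 over the 11264 genes compared. It stood at 60.3 ± 1.79 CPM (SD, n = 3) in normoxia, 41.4 ± 1.69 CPM in H/R-DMSO and 54.3 ± 1.23 CPM in H/R-AS8351, with log2 fold changes of -0.54 after H/R, 0.39 with AS8351 against H/R-DMSO and -0.15 against normoxia. The pattern nearest to Ryr2 was that of ENSRNOG00000012160, at a distance of 0.02 against a median of 0.15. It stood at 15.3 ± 0.36 CPM (SD, n = 3) in normoxia, 16.1 ± 0.325 CPM in H/R-DMSO and 17.3 ± 0.676 CPM in H/R-AS8351, and it did not pass the test in any of the 3 comparisons (edgeR adjusted p = 0.473, 0.404 and 0.0793).

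By this measure neither calcium store gene was among the nearest to the other, and their distance was 0.23. From Atp2a2 that was just below the median of 0.25, and 4664 of the 11264 genes, or 41.4%, had a pattern nearer to Atp2a2 than Ryr2 had. Seen from Ryr2 it was above the median of 0.15, and 8890 genes, or 78.9%, were nearer to it than Atp2a2. Genes were centred but not scaled, so the distance takes in the size of each gene's changes as well as their direction.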

How the data were processed

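Per the labels' protocols, total RNA was taken with TRIzol and the NEBNext Ultra II kit was used. The authors deposited raw counts per Ensembl identifier, 1 table for each library. The submitters' processing notes name Trimmomatic 0.39, STAR 2.7.3a, featureCounts 2.0.1, DESeq2 1.32.0 and the build rn6. Annotation release, strand setting and the handling of multi-mapping reads are not given in the sources at hand, so reads that overlapping, antisense or similar genes share with Atp2a2 or Ryr2 cannot be separated.

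Sample titles gave groups and replicate numbers; file names of the H/R-AS8351 libraries carry another code. Within groups, libraries differed beyond sampling noise (chi-square per degree of freedom 3.89 to 8.72), so none was treated as a repeat deposit; this does not show separate cultures. With edgeR 4.0.16 (R 4.3.3), genes were kept by filterByExpr (minimum count 10, minimum total 15), scaled by TMM (factors 0.934 to 1.049) and fitted in one quasi-likelihood model of 3 group means over 9 libraries. The SE is the log2 fold change divided by the square root of F. Benjamini-Hochberg adjustment covered all 15879 genes, with a threshold of 0.05. The test was tried on simulated counts with known changes in a small share of genes, unlike these data, and no result here rests on that trial. The alternatives were RLE, upper-quartile and total-count scaling, no filter or a minimum mean of 1 CPM, limma-voom (limma 3.58.1), DESeq2 1.42.0, the groups compared alone, a replicate block, and each library left out.

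The 2 genes, the lists and the tests were chosen with earlier results of these data known. Besides the 2 genes, the rule for named genes took the identifier with the pattern nearest to each, 1 per gene because identifiers had no symbols (log2 CPM with a prior count of 2). Of the identifiers, 0 matched the rat gene table, of assembly GRCr8, so the gene lists and cell type markers were not analysed.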

Additional observations from a re-analysis of the deposited data

How the results depend on the processing

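Of 18 alternatives per gene and comparison, the values of Atp2a2 after H/R and with AS8351 against H/R-DMSO, and of Ryr2 with AS8351 against normoxia, kept direction and call in all. Scaling to the total count alone changed the other calls: Ryr2 after H/R came to 0.203 and was called, while Ryr2 with AS8351 against H/R-DMSO (0.0717) and Atp2a2 with AS8351 against normoxia (-0.0115) were no longer called. By its construction that scaling leaves out the composition factor, which moved the median of all genes by 0.16 after H/R. Under it 74.3%, 41.0% and 76.7% of called genes were higher in the 3 comparisons, against 52.1%, 56.9% and 49.98% with TMM. The position of Atp2a2 moved from 70.1% to 73.7% on the log2 scale and to 96.4% with the total count.

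With each library left out in turn, log2 fold changes ranged from -0.532 to -0.513 for Atp2a2 and 0.0208 to 0.0594 for Ryr2 after H/R, from 0.376 to 0.395 and 0.0884 to 0.136 with AS8351 against H/R-DMSO, and from -0.144 to -0.135 and 0.129 to 0.168 against normoxia. The position ranged from 68.995% to 70.7%. The differences in log2 ratio ranged from -0.577 to -0.539, 0.248 to 0.296 and -0.312 to -0.264, and the exact permutation p over 3 groups was 0.00357 in all 9 cases, the smallest that the design gives with 8 or 9 libraries, so that this p says nothing on stability. The left-out libraries for the 3-group test, and the position of other genes on 2 further scales, were chosen after seeing the data. A position of Ryr2 under alternatives was not computed, since it was not called.

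Libraries with the same replicate number had deviations from their group means that correlated at -0.023 to 0.042, and others at -0.045 to 0.026. These are correlations over all genes tested, and they cannot show whether libraries with the same number shared a culture or batch. The labels do not state it either. With the replicate block, Atp2a2 stood at -0.52, 0.38 and -0.14 and Ryr2 at 0.04, 0.11 and 0.15, the ratio differences were -0.56, 0.27 and -0.29, and no call changed. The block called 8539, 3940 and 6468 genes, against 8364, 3671 and 6257 without it.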
